A study of Mus musculus with 6 samples.

Results

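Excitation-contraction coupling and triad genes were examined in bulk RNA-Seq of mouse gastrocnemius-plantaris (GP) muscle. The group holds 32 genes of the T-tubule, the triad and the excitable muscle membrane, matched by gene symbol, and all 32 were among the 24421 genes listed. The libraries came from 3 mice labelled Ctrl and 3 mice labelled cKO. Both groups carried the Net39 fl/fl allele on a B6C3F1 background, were 5 months old and were sampled 3 months post-tamoxifen. By their labels the Ctrl mice lacked Cre and the cKO mice carried HSACreERT2, in which the human skeletal actin promoter drives a tamoxifen-activated Cre in muscle fibres but not in satellite cells. The mice were male per the study's methods, and Cre removes the first exon of Net39, so that reads from the rest of the gene could still be counted.

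A muscle action potential spreads from the sarcolemma into the T-tubules, inward folds of the membrane that meet the sarcoplasmic reticulum (SR) at the triad. There the dihydropyridine receptor (DHPR), a voltage-gated calcium channel whose pore subunit is encoded by Cacna1s, acts as the voltage sensor and opens the ryanodine receptor RYR1 by physical contact, so that calcium leaves the SR and the fibre contracts. Junctophilins hold both membranes together, STIM and ORAI proteins let calcium in when the SR is depleted, and sodium, chloride and sodium-potassium transport sets how readily the membrane fires. Fast-twitch fibres are known for a denser triad network than slow-twitch fibres.

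The targeted gene went against the labels. Net39, listed as Ppapdc3, had 217 to 321 counts in Ctrl-labelled libraries and 4340 to 6080 in cKO-labelled ones (log2 fold change 4.22, SE 0.17, edgeR adjusted p = 0.000161). The libraries are therefore named by their labels only, Ctrl-labelled with low Net39 and cKO-labelled with high Net39, and a positive log2 fold change stands for a higher level in the cKO-labelled libraries. If the labels of the groups were exchanged, every direction given here would turn with respect to genotype, and the files alone do not settle this. The libraries held 33860001 to 48839910 counts, and the skeletal muscle genes listed summed to between 120200 and 215800 CPM, the count of a gene relative to the scaled library total, in every library. Among cardiac genes, Nppb and Mybpc3 were near 0, and in the other marker lists no gene was.

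Of the 32 genes, 17 were higher in cKO-labelled libraries, 3 were higher in Ctrl-labelled ones and 12 did not pass edgeR's quasi-likelihood test at an adjusted p of 0.05. The 17 make up 53.1% of the group, where 12.6% of the 14180 genes tested were higher in cKO-labelled libraries. The 3 make up 9.38%, where 11.8% of all genes tested were higher in Ctrl-labelled libraries. In either direction 20 of 32 genes passed, where the share over all genes was 24.4%. All 32 had passed the expression filter. The median log2 fold change of the group was 0.32, from -0.99 to 1.07, and that of all genes tested was -0.015. Both groups were fully separated in 25 of the 32 genes (78.1%), against 43.9% of all genes tested. Changes were moderate. Only Stim2 also exceeded a 2-fold change, 1 gene of 32 in the direction of cKO-labelled libraries (2.13% of all genes) and 0 in the other (3.92%), where 6.05% of all genes exceeded 2-fold in either direction. The count of 0 was also 0 in DESeq2's Wald test and at an unadjusted p under 0.05 in edgeR.

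**Figure D1:**
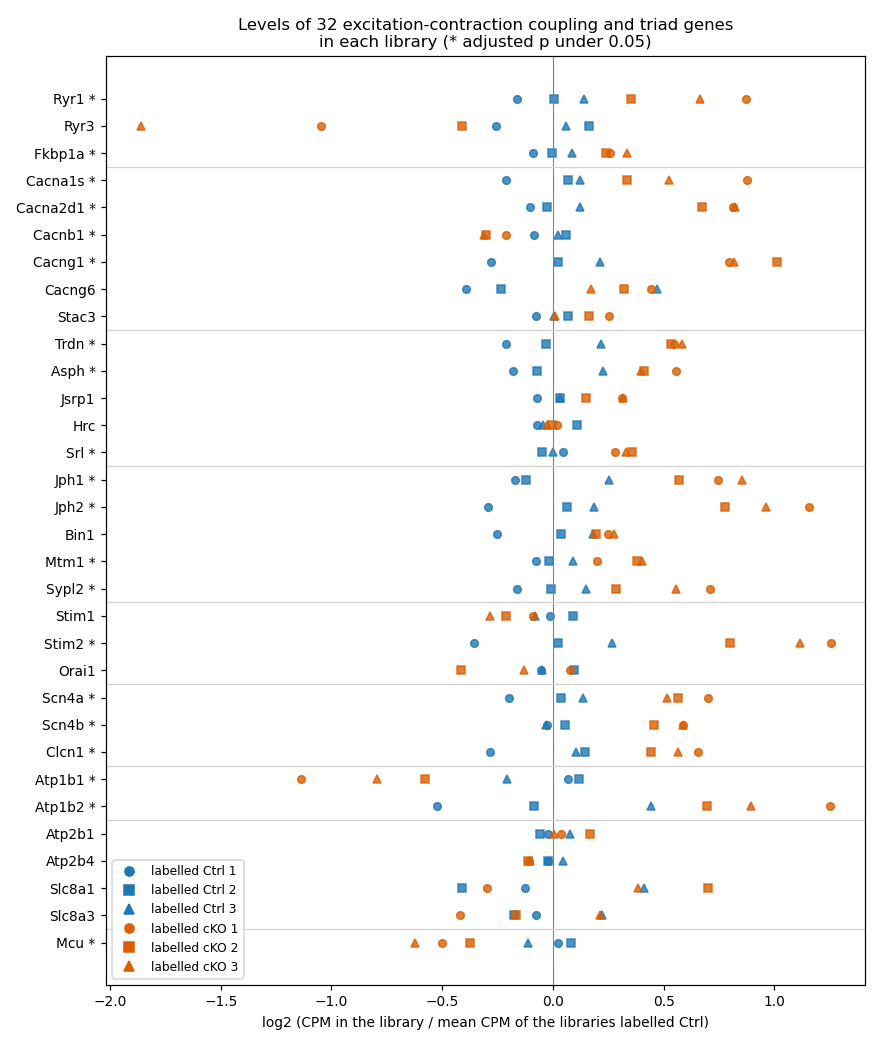
Level of each of the 32 genes in each library, as log2 of its CPM over the mean CPM of the 3 libraries labelled Ctrl, with grey lines between functional classes and a star at each gene with an adjusted p under 0.05. Orange symbols (labelled cKO) lie to the right of blue symbols (labelled Ctrl) for the 17 genes higher in cKO-labelled libraries and to the left for Cacnb1, Atp1b1 and Mcu.

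The scaling of the libraries set how many genes passed. When libraries were scaled by total counts alone, without TMM factors, the median of all genes tested shifted from -0.015 to -0.27, and 8 of the 32 genes were then higher in cKO-labelled libraries and 7 in Ctrl-labelled ones (673 and 4074 of all genes tested). Ryr1, Fkbp1a, Cacna1s, Trdn, Asph, Srl, Mtm1, Sypl2 and Clcn1 lost their call with total counts, and Ryr3, Stim1, Orai1 and Atp2b4 gained one. The log2 fold changes of the 9 genes that lost it were 0.38 (Ryr1), 0.024 (Fkbp1a), 0.33 (Cacna1s), 0.30 (Trdn), 0.20 (Asph), 0.070 (Srl), 0.079 (Mtm1), 0.27 (Sypl2) and 0.30 (Clcn1) under that scaling, with edgeR adjusted p from 0.0584 (Ryr1) to 0.838 (Fkbp1a). The share of passing members that were higher in cKO-labelled libraries was 85.0% with TMM factors and 53.3% with total counts. Relative to the median of all genes under the same scaling, each of the 17 genes lay above that median and each of the 3 below it under both scalings. A change of scaling shifts all genes nearly alike, so this position is set largely by construction and is no separate check of the calls.

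**Figure D2:**
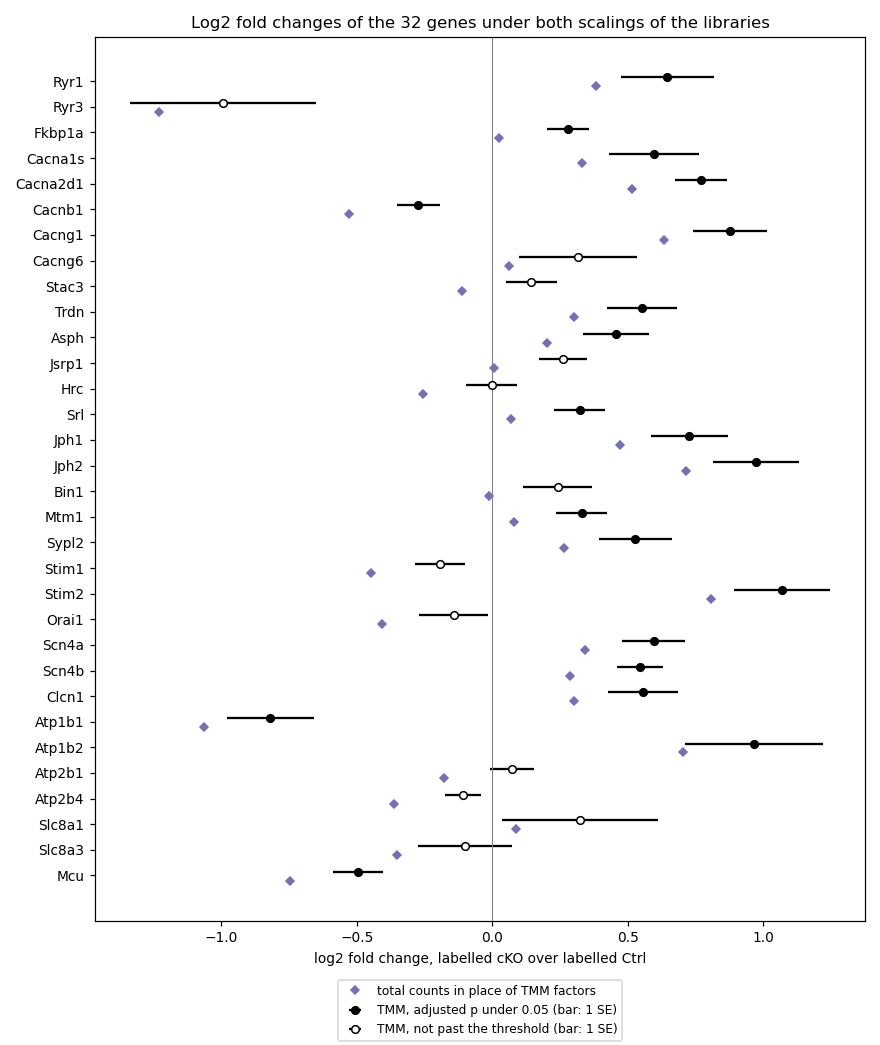
Log2 fold change (labelled cKO over labelled Ctrl) of each of the 32 genes with TMM factors (circles, bars 1 SE, filled where the adjusted p was under 0.05) and with total counts (diamonds). Each diamond lies to the left of its circle by a similar distance, near the shift of the median of all genes from -0.015 to -0.27.

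Single libraries also decided calls. The count of 17 became 8 without the library labelled Ctrl 1 or cKO 1 and 7 without Ctrl 2 or cKO 3. It became 16 without Ctrl 3 (with Cacng6 gained) and 15 without cKO 2 (with Jsrp1 gained). Over all genes, the count of 1786 became 766 without Ctrl 1, 873 without Ctrl 2 and 1703 without Ctrl 3. Without cKO 1, cKO 2 and cKO 3 the count over all genes was 896, 1777 and 772. In all 6 fits that left out 1 library, 8 of the 20 genes kept their call: Cacna2d1, Cacng1, Jph2, Stim2, Scn4a, Scn4b, Atp1b1 and Mcu. Jph1 lost it in 1 fit (without Ctrl 2, adjusted p = 0.0523 in edgeR) and Clcn1 in 2 (without cKO 1 or cKO 3). Ryr1, Trdn, Asph, Sypl2 and Atp1b2 lost it in 4 (without Ctrl 1, Ctrl 2, cKO 1 or cKO 3), and Mtm1 in 4 (without Ctrl 1, Ctrl 2, cKO 2 or cKO 3). Fkbp1a lost it in 5 (it passed without Ctrl 3), Cacna1s in 5 (it passed without cKO 2), and Srl and Cacnb1 in all 6. None of the 20 genes changed direction in any alternative fit.

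Per kilobase of merged exons, the levels of the 32 genes in Ctrl-labelled libraries spanned from 0.178 CPM per kilobase for Ryr3 to 407 for Hrc. On this per-length scale Hrc was followed by Srl (274), Jsrp1 (273), Ryr1 (234), Bin1 (224), Cacna1s (175) and Jph2 (163). The ranges of Hrc and Srl, and of Jsrp1 and Ryr1, did not overlap between the mice, while those of the other neighbours did. Srl and Jsrp1 also changed order within single libraries, whereas Ryr1 lay above Bin1, Bin1 above Cacna1s and Cacna1s above Jph2 in each Ctrl-labelled library. In cKO-labelled libraries, Ryr1 (366 CPM per kilobase), Srl (343), Jsrp1 (327) and Jph2 (319) lay closer to Hrc (407). The low end of the order held Mtm1 (1.14), Slc8a1 (0.789) and Ryr3 in Ctrl-labelled libraries.

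**Figure D3:**
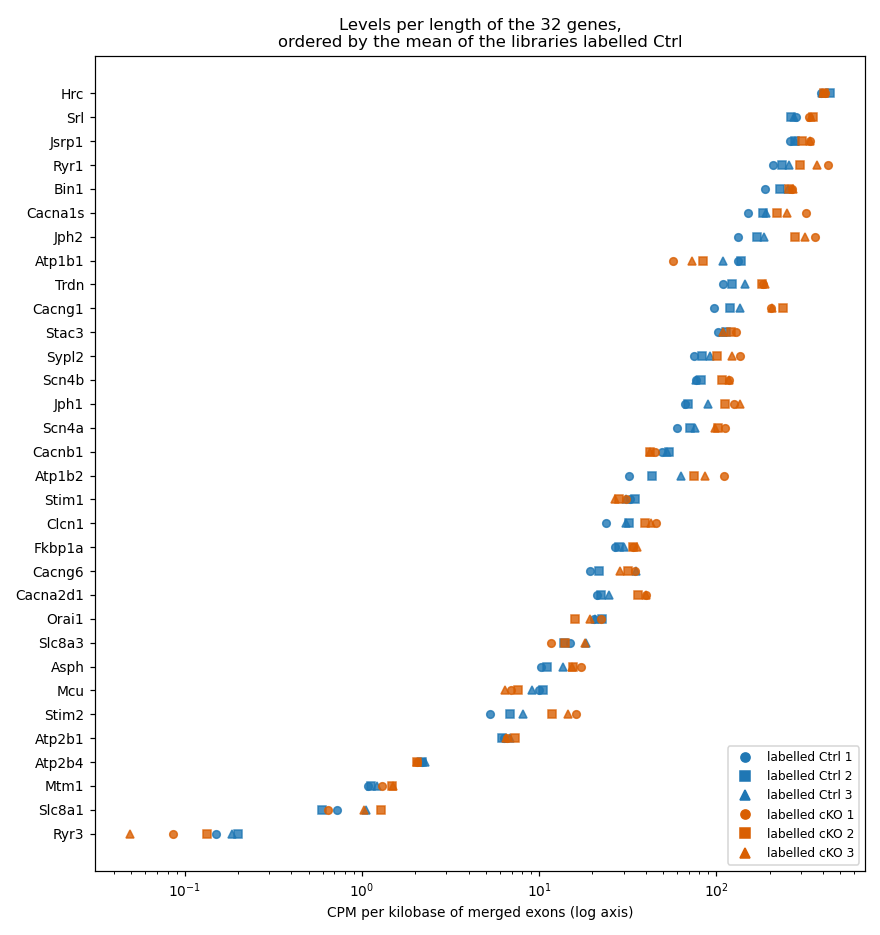
CPM per kilobase of merged exons (log axis) of each of the 32 genes in each library, ordered by the mean of Ctrl-labelled libraries. The genes run from 0.178 (Ryr3) to 407 (Hrc) CPM per kilobase in those libraries.

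The start-site regions of the group were examined next. Promoter windows of 250 bases before to 50 after the start site were taken from RefSeq on GRCm38.p6, and 22 of the 32 genes matched, with 27 windows. Ryr1, Cacna1s, Jph2, Sypl2 and Stim2 are shown because they are the genes with a window among the 6 whose levels ordered the libraries in the same way, as given below, and Clcn1 because it alone of the group held a MEF2 site. Capitals mark the E-box, CANNTG, the motif bound by myogenic factors such as MYOD, in Cacna1s (chr1:136052561-136052860, plus strand), Jph2 (first of its 2 windows, chr2:163397944-163398243, minus strand) and Sypl2 (chr3:108226550-108226849, minus strand). In Clcn1 (chr6:42286435-42286734, plus strand) they mark the match to the MEF2 site. The windows of Ryr1 (chr7:29125102-29125401, minus strand) and Stim2 (chr5:53998273-53998572, plus strand) held 0 matches to any of the motifs searched and have no capitals.

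Cacna1s: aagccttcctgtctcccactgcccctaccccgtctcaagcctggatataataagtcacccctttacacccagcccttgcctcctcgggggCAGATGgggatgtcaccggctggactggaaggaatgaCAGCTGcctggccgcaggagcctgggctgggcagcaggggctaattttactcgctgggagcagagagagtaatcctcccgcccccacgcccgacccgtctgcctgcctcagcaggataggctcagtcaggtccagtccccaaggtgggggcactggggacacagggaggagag

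Jph2: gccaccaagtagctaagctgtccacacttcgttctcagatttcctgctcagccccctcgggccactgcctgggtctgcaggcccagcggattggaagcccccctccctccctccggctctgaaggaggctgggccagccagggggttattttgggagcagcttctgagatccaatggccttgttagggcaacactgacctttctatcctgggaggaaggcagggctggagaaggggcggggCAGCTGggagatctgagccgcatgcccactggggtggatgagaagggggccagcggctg

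Sypl2: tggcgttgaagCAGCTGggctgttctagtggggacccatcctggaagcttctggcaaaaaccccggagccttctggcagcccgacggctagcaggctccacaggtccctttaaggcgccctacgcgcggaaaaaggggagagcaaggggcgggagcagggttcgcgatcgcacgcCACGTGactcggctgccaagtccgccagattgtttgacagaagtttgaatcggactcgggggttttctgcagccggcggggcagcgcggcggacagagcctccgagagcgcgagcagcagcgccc

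Ryr1: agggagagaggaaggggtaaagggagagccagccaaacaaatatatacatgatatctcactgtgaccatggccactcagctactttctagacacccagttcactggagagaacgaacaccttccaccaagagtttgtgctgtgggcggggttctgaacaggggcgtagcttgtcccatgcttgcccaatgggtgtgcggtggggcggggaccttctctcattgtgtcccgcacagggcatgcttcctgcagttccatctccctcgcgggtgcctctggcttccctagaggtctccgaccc

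Stim2: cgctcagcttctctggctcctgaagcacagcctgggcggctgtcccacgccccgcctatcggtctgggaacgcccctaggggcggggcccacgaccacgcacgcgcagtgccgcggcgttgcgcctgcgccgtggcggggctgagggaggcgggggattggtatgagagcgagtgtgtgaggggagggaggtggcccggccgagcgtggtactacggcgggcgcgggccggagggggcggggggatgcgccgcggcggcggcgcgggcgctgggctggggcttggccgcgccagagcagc

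Clcn1: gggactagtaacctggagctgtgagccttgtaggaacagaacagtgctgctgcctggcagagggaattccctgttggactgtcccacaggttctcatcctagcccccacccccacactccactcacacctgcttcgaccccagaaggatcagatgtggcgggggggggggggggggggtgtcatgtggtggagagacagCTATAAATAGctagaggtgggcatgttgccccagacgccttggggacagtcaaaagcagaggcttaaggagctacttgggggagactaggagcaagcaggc

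The E-boxes of Cacna1s began 160 and 123 bases before the start site, that of Jph2 9 bases before it, and those of Sypl2 239 and 75 bases before it. Counting both strands, an E-box was found in 70.4% of the 27 windows of the group and in 72.3% of all 32851 windows, shares that lay close together. The MEF2 match in Clcn1 began 51 bases before the start site and contains the letters TATAAA of a TATA box. The same window held E-boxes, not capitalized here, that began 125, 101 and 69 bases before the start site. The MEF2 site was found in 1 of the 27 windows (3.70%) and in 3.19% of all windows, and the CArG box, the site of serum response factor, in 0 of the 27 and in 1.63% of all. These are matches of letters, and binding was not measured here.

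Calcium release from the SR was examined first. Ryr1, the release channel of skeletal muscle (chromosome 7, 29003344 to 29125179, GRCm38), had 4563, 5130 and 5625 CPM in Ctrl-labelled mice 1 to 3 and 9339, 6516 and 8095 CPM in cKO-labelled mice 1 to 3, the order of libraries kept from here on. Every cKO-labelled library lay above every Ctrl-labelled library, and the widest gap within a group was between cKO 1 and cKO 2. The log2 fold change was 0.64 (SE 0.17, edgeR adjusted p = 0.0342). Fkbp1a encodes FKBP12, which binds and stabilizes the closed channel. It had 103, 110 and 117 CPM in Ctrl-labelled libraries and 131, 130 and 139 CPM in cKO-labelled ones (log2 fold change 0.28, SE 0.08, edgeR adjusted p = 0.0403, and 0.838 with total counts). Fkbp1a has annotated processed pseudogenes, so its counts may be split or lost between copies.

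Ryr3, a paralog best known from developing muscle and diaphragm, was rare. It had 2.84, 3.79 and 3.53 CPM in Ctrl-labelled libraries (111 to 157 counts) and 1.64, 2.55 and 0.932 CPM in cKO-labelled ones (41 to 98 counts). The groups did not overlap, but the log2 fold change of -0.99 did not pass (SE 0.34, edgeR adjusted p = 0.0748). It passed without the library labelled cKO 2 (log2 fold change -1.42), with total counts (-1.23, edgeR adjusted p = 0.0396) and in DESeq2's Wald test (-0.99, adjusted p = 0.0270). Of the merged exon bases of Ryr3, 4.83% lie on the opposite strand of exons of Aven, and the use of strand in counting is not given in the sources used here.

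The DHPR subunits did not move together. Cacna1s, the pore and voltage sensor (chromosome 1, 136052750 to 136119822), had 986, 1200 and 1246 CPM in Ctrl-labelled libraries and 2099, 1443 and 1645 CPM in cKO-labelled ones. The groups did not overlap, with cKO 1 the highest of the 6 libraries (log2 fold change 0.60, SE 0.17, edgeR adjusted p = 0.0402). Of its merged exon bases, 20.0% lie opposite an antisense gene, Gm37759. Cacna2d1 encodes the alpha2-delta subunit, which sits outside the membrane and helps traffic the channel. Its level was 263, 277 and 307 CPM in Ctrl-labelled libraries and 496, 450 and 499 CPM in cKO-labelled ones. This was a 1.71-fold difference with little spread in either group (log2 fold change 0.77, SE 0.10, edgeR adjusted p = 0.00365). Cacng1, the gamma subunit found in skeletal muscle, had 121, 149 and 170 CPM in Ctrl-labelled libraries and 255, 296 and 259 CPM in cKO-labelled ones (log2 fold change 0.88, SE 0.14, edgeR adjusted p = 0.00664). Here cKO 2, the lowest cKO library for Ryr1 and Cacna1s, was the highest.

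Cacnb1, the intracellular beta subunit that carries the pore subunit to the triad, went the other way. It had 223, 247 and 240 CPM in Ctrl-labelled libraries and 205, 192 and 191 CPM in cKO-labelled ones, a small difference without overlap (log2 fold change -0.27, SE 0.08, edgeR adjusted p = 0.0455). The call was lost in each fit that left out 1 library. Stac3, an adaptor that couples the DHPR to RYR1, had 261 to 288 CPM in Ctrl-labelled libraries and 276 to 328 CPM in cKO-labelled ones. The ranges overlapped (log2 fold change 0.14, SE 0.09, edgeR adjusted p = 0.300), and with total counts the value was -0.11. Cacng6, a further gamma subunit, had 38.4, 42.8 and 69.8 CPM in Ctrl-labelled libraries and 68.4, 62.8 and 56.7 CPM in cKO-labelled ones. The single library labelled Ctrl 3 lay above the whole cKO range (log2 fold change 0.32, SE 0.22, edgeR adjusted p = 0.324), and without it the log2 fold change was 0.63 (edgeR adjusted p = 0.0124).

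Of the 5 genes of junctional and luminal SR proteins, 3 were higher in cKO-labelled libraries and 2 did not pass. Trdn encodes triadin, which anchors calsequestrin at the release channel. It had 1015, 1150 and 1366 CPM in Ctrl-labelled libraries and 1720, 1701 and 1761 CPM in cKO-labelled ones (log2 fold change 0.55, SE 0.13, edgeR adjusted p = 0.0224). The cKO-labelled libraries lay close together and the Ctrl-labelled ones spread more widely. Asph, whose products include junctin, junctate and an aspartate hydroxylase that gene-level counts do not separate, had 166, 179 and 220 CPM in Ctrl-labelled libraries and 276, 251 and 248 CPM in cKO-labelled ones (log2 fold change 0.46, SE 0.12, edgeR adjusted p = 0.0336). Exons of Clvs1 and Gm25677 lie opposite 14.7% of its merged exon bases, and Clvs1 itself had 0.0682 to 4.54 CPM. Srl, sarcalumenin, a calcium-binding glycoprotein of the SR, had 1507, 1409 and 1460 CPM in Ctrl-labelled libraries and 1769, 1870 and 1834 CPM in cKO-labelled ones (log2 fold change 0.32, SE 0.09, edgeR adjusted p = 0.0450, and 0.624 with total counts).

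Jsrp1 and Hrc did not pass. Jsrp1, JP-45, which links the DHPR to calsequestrin, had 347, 373 and 373 CPM in Ctrl-labelled libraries and 452, 404 and 453 CPM in cKO-labelled ones, without overlap (log2 fold change 0.26, SE 0.09, edgeR adjusted p = 0.0702). It passed without the library labelled cKO 2 and in DESeq2's Wald test (adjusted p = 0.0201), and with total counts its log2 fold change was 0.0047 (edgeR adjusted p = 0.967). Hrc, the histidine-rich calcium-binding protein of the SR lumen, had 995 to 1128 CPM in Ctrl-labelled libraries and 1027 to 1058 CPM in cKO-labelled ones. Its log2 fold change of -0.0033 was far smaller than its SE of 0.09 (edgeR adjusted p = 0.984), and its sign changed in 4 of the alternative fits.

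Both junctophilins were higher in cKO-labelled libraries. Jph2 (chromosome 2, 163336242 to 163397993) had 565, 723 and 788 CPM in Ctrl-labelled libraries and 1541, 1185 and 1350 CPM in cKO-labelled ones. This 1.96-fold difference was among the largest of the group (log2 fold change 0.97, SE 0.16, edgeR adjusted p = 0.00750). Jph1 had 334, 346 and 449 CPM in Ctrl-labelled libraries and 630, 559 and 679 CPM in cKO-labelled ones (log2 fold change 0.73, SE 0.14, edgeR adjusted p = 0.0127). The log2 count ratio Jph1:Jph2 was -0.88 ± 0.16 (SD, n = 3) in Ctrl-labelled libraries and -1.12 ± 0.15 (SD, n = 3) in cKO-labelled ones, with overlapping values.

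Of the other 3 genes of the junction and T-tubule, Sypl2 and Mtm1 passed and Bin1 did not. Sypl2 encodes mitsugumin 29, a synaptophysin-like protein of the triad membrane. It had 326, 362 and 404 CPM in Ctrl-labelled libraries and 596, 444 and 535 CPM in cKO-labelled ones (log2 fold change 0.53, SE 0.14, edgeR adjusted p = 0.0312). Mtm1, the phosphoinositide phosphatase myotubularin, had 15.04, 15.7 and 16.9 CPM in Ctrl-labelled libraries and 18.2, 20.6 and 21.0 CPM in cKO-labelled ones (log2 fold change 0.33, SE 0.09, edgeR adjusted p = 0.0419, and 0.622 with total counts). Bin1, amphiphysin 2, which bends membrane into tubules, had 774 to 1048 CPM in Ctrl-labelled libraries and 1058 to 1117 CPM in cKO-labelled ones. The groups were separated by a gap smaller than the range of Ctrl-labelled libraries, and the log2 fold change of 0.24 did not pass (SE 0.13, edgeR adjusted p = 0.207) and was -0.0126 with total counts.

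Among the store-operated entry genes, Stim2 alone was called over 2-fold. STIM proteins sense the calcium content of the SR and open ORAI1, the channel of the T-tubule and plasma membrane. Stim2 (chromosome 5, 53998499 to 54121057) had 27.2, 35.4 and 41.8 CPM in Ctrl-labelled libraries and 82.9, 60.6 and 75.3 CPM in cKO-labelled ones. Its lowest cKO-labelled library lay above its highest Ctrl-labelled library, a 2.098-fold difference (log2 fold change 1.07, SE 0.18, edgeR adjusted p = 0.00785). Without the library labelled Ctrl 1 or cKO 1, and with total counts, the fold change was no longer over 2, while the adjusted p stayed under 0.05.

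Stim1, the more abundant paralog, had 338, 363 and 322 CPM in Ctrl-labelled libraries and 320, 294 and 280 CPM in cKO-labelled ones. The highest cKO library and the lowest Ctrl library were nearly equal (log2 fold change -0.19, SE 0.09, edgeR adjusted p = 0.164). With total counts Stim1 passed (log2 fold change -0.45, edgeR adjusted p = 0.0124), as did Orai1 (-0.41, edgeR adjusted p = 0.0199). With TMM factors Orai1 had 47.1 to 52.2 CPM in Ctrl-labelled libraries and 36.6 to 51.6 CPM in cKO-labelled ones, an overlap (log2 fold change -0.14, SE 0.13, edgeR adjusted p = 0.441). The log2 count ratio Stim2:Stim1 was -3.64, -3.36 and -2.94 in Ctrl-labelled libraries and -1.95, -2.28 and -1.90 in cKO-labelled ones. The ratio was 2.42-fold higher in cKO-labelled libraries, with no overlap (two-sided, exact permutation p = 0.1, as low as 3 mice against 3 can reach).

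The 3 genes of sarcolemmal ion channels were higher in cKO-labelled libraries, of which Clcn1 did not pass with total counts (log2 fold change 0.30, edgeR adjusted p = 0.0783). Scn4a, the voltage-gated sodium channel of skeletal muscle, had 425, 500.2 and 536 CPM in Ctrl-labelled libraries and 791, 720 and 696 CPM in cKO-labelled ones (log2 fold change 0.60, SE 0.12, edgeR adjusted p = 0.0126). Its beta4 subunit gene Scn4b had 384, 406 and 382 CPM in Ctrl-labelled libraries and 587, 537 and 588 CPM in cKO-labelled ones, with little spread (log2 fold change 0.55, SE 0.09, edgeR adjusted p = 0.00678). Clcn1, the chloride channel that stabilizes the resting membrane and whose promoter is shown above, had 129, 174 and 169 CPM in Ctrl-labelled libraries and 247, 214 and 233 CPM in cKO-labelled ones (log2 fold change 0.56, SE 0.13, edgeR adjusted p = 0.0227). For each of the 3 genes every cKO-labelled library lay above every Ctrl-labelled library. The log2 count ratio Clcn1:Scn4a differed by -0.034 and that of Scn4b:Scn4a by -0.055 between the groups, both within the spread between mice.

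The beta subunits of the sodium-potassium pump, which restores the ion gradients after firing, went in opposite directions. Atp1b1 (chromosome 1, 164437109 to 164458355) had 409, 422 and 337 CPM in Ctrl-labelled libraries and 177, 261 and 224 CPM in cKO-labelled ones. It was 1.77-fold higher in Ctrl-labelled libraries (log2 fold change -0.82, SE 0.16, edgeR adjusted p = 0.0128). Exons of Nme7 lie opposite 18.7% of its merged exon bases, and Nme7 had 0.931 to 1.35 CPM. Atp1b2 (chromosome 11, 69599736 to 69605942) had 131, 178 and 257 CPM in Ctrl-labelled libraries and 449, 306 and 352 CPM in cKO-labelled ones, with the widest fold range among the Ctrl-labelled libraries of any of the 32 genes (log2 fold change 0.97, SE 0.25, edgeR adjusted p = 0.0328). Atp1b1 counts exceeded Atp1b2 counts in each Ctrl-labelled library and fell short of them in each cKO-labelled library, but per kilobase of exons Atp1b1 still lay above Atp1b2 in cKO 2 (84.6 and 74.9 CPM per kilobase). The log2 count ratio Atp1b1:Atp1b2 was 1.64, 1.24 and 0.39 in Ctrl-labelled libraries and -1.35, -0.23 and -0.65 in cKO-labelled ones (two-sided, exact permutation p = 0.1, again the lowest possible).

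None of the 4 calcium extrusion genes passed in edgeR with TMM factors or in DESeq2, and 0 had an unadjusted p under 0.05 in that edgeR fit. With total counts Atp2b4 passed (log2 fold change -0.36, edgeR adjusted p = 0.0177). The plasma membrane calcium pump genes had 94.6 to 111 CPM (Atp2b1) and 25.1 to 28.0 CPM (Atp2b4) over the 6 libraries, with log2 fold changes of 0.072 (SE 0.08, edgeR adjusted p = 0.544) and -0.11 (SE 0.07, edgeR adjusted p = 0.278). Atp2b4 varied little, and its cKO-labelled libraries were nearly equal. Both sodium-calcium exchanger genes varied more between mice than between groups. Slc8a1 had 11.2 to 19.7 CPM in Ctrl-labelled libraries and 12.1 to 24.1 CPM in cKO-labelled ones (log2 fold change 0.32, SE 0.29, edgeR adjusted p = 0.446). Slc8a3 had 74.1 to 97.5 CPM and 62.6 to 96.9 CPM (log2 fold change -0.10, SE 0.17, edgeR adjusted p = 0.707).

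Mcu, the pore of the mitochondrial calcium uniporter, was higher in Ctrl-labelled libraries. It had 69.7, 72.5 and 63.3 CPM in Ctrl-labelled libraries and 48.4, 52.9 and 44.5 CPM in cKO-labelled ones, without overlap (log2 fold change -0.50, SE 0.09, edgeR adjusted p = 0.0110). The regulators Micu2 and Micu3, chosen here after their values were seen, went in opposite directions. Micu2 was higher in Ctrl-labelled libraries (log2 fold change -0.81, SE 0.09, edgeR adjusted p = 0.00237) and Micu3 in cKO-labelled ones (0.97, SE 0.18, edgeR adjusted p = 0.0121).

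Count ratios within 14 pairs of these genes were compared because a ratio within a library does not change with the scaling. In 7 pairs the ratios were fully separated between the groups, and in each of these p was 0.1 by an exact two-sided permutation test (adjusted p = 0.2 over the 14 pairs), so no pair could pass. Single genes were separated in 43.9% of all genes tested, and no such share was computed over ratios. Of the 7, only Stim2:Stim1 was higher in cKO-labelled libraries. Besides Atp1b1:Atp1b2, the largest difference was in Ryr3:Ryr1, whose log2 ratio was lower by 1.72 in cKO-labelled libraries, where it spread from -13.07 to -11.31. Stac3:Cacna1s (difference -0.44), Jsrp1:Cacna1s (-0.32), Cacng6:Cacng1 (-0.53) and Atp2b4:Atp2b1 (-0.18) were lower there too. Cacna1s:Ryr1 was -2.16 ± 0.06 (SD, n = 3) in Ctrl-labelled libraries and -2.21 ± 0.08 (SD, n = 3) in cKO-labelled ones, and Trdn:Ryr1 was -2.12 ± 0.07 (SD, n = 3) and -2.19 ± 0.25 (SD, n = 3), both with overlapping values. A further ratio was chosen after its values were seen and was not tested. Cacnb1:Cacna1s was -2.15, -2.28 and -2.38 in Ctrl-labelled libraries and -3.36, -2.91 and -3.11 in cKO-labelled ones, and it holds the change of Cacna1s itself.

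**Figure D4:**
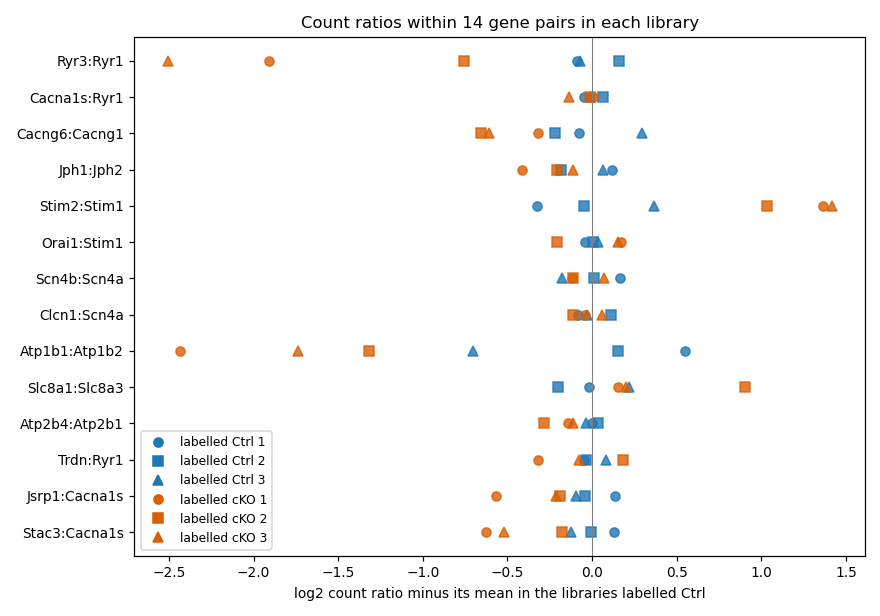
Log2 count ratio of 14 gene pairs in each library, minus the mean of the 3 libraries labelled Ctrl. The symbols of the groups are separate in 7 pairs, with Stim2:Stim1 to the right and Atp1b1:Atp1b2 and Ryr3:Ryr1 farthest to the left, and Cacna1s:Ryr1 lies near 0 in all libraries.

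The wider pathway was examined with a list of 65 other genes of the triad, the excitable membrane and calcium handling, of which 63 were tested. Of these, 9 were higher in cKO-labelled libraries and 9 in Ctrl-labelled ones (14.3% each, against 12.6% and 11.8% of all genes tested), and their median log2 fold change was -0.061. The 9 higher in Ctrl-labelled libraries became 4 without Ctrl 1, cKO 1 or cKO 3 and 21 with total counts. Over all genes, the count of 1668 became 809, 893 and 788 without these libraries and 4074 with total counts. The largest log2 fold change was that of Rrad, a small GTPase that inhibits voltage-gated calcium channels. It had 54.2, 70.9 and 132 CPM in Ctrl-labelled libraries and 4.35, 7.27 and 2.45 CPM in cKO-labelled ones, an 18.3-fold difference (log2 fold change -4.20, SE 0.48, edgeR adjusted p = 0.00315). Scn3b, a sodium channel beta subunit, was higher in cKO-labelled libraries at a low level of 4.36 to 5.45 CPM, against 1.07 to 1.92 CPM (log2 fold change 1.68, SE 0.23, edgeR adjusted p = 0.00459).

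The calsequestrins, the calcium buffers of the SR, differed in direction. Casq1, the fast-fibre isoform, had 1096 to 1603 CPM in Ctrl-labelled libraries and 2460 to 2826 CPM in cKO-labelled ones (log2 fold change 0.99, SE 0.16, edgeR adjusted p = 0.00724). Casq2, the slow and cardiac isoform, had 108 to 144 CPM and 21.6 to 52.7 CPM (log2 fold change -1.55, SE 0.32, edgeR adjusted p = 0.0157), and lost its call without the library labelled Ctrl 1. Cacng7, a relative of the DHPR gamma subunit, was higher in cKO-labelled libraries (log2 fold change 1.14, SE 0.20). Higher in Ctrl-labelled ones were Atp1b4, a beta-subunit relative (-1.01, SE 0.27), and Ccdc109b, which encodes MCUB, a dominant-negative relative of MCU (-1.25, SE 0.28). Atp1b4 passed in 1 of the 6 fits that left out 1 library, the one without cKO 2, and Ccdc109b lost its call without cKO 1 or cKO 3.

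Fibre-type genes moved with the same groups. A list of 15 genes is called the type IIb list here, although it includes genes of fast fibres in general, such as Casq1. Of these 15 genes, 14 were higher in cKO-labelled libraries and 0 in Ctrl-labelled ones. Their summed level was 71530 to 115500 CPM in Ctrl-labelled libraries and 176200 to 226900 CPM in cKO-labelled ones. Of 17 slow-fibre genes, 8 were higher in Ctrl-labelled libraries and 1 in cKO-labelled ones, with sums of 11860 to 19390 CPM and 1694 to 5472 CPM. Casq1 is on the first list and Casq2 on the second, and no gene of the 32 is on either. In whole muscle, fewer fibres of a type and less RNA per fibre cannot be told apart.

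The order of single libraries was compared with the type IIb sum. The type IIb sum rose in the order Ctrl 1, Ctrl 2, Ctrl 3, cKO 2, cKO 3 and cKO 1. Ryr1, Cacna1s, Jph2, Sypl2, Stim2 and Atp1b2, 6 of the 32 genes (18.8%), ordered the 6 libraries in exactly this way. Of all genes tested 2.87% did, and the other 26 of the group did not. Such an order needs every cKO-labelled library above every Ctrl-labelled one, which held for 19 of the 32 genes. The shares therefore partly restate the group difference, and no share was computed among the genes separated in that direction. Among the 17 genes higher in cKO-labelled libraries, Ctrl 1 was the lowest library of its group in 15 (88.2%) and cKO 2, the library with the highest slow-fibre sum of its group, in 12 (70.6%). Among all 1786 genes higher in cKO-labelled libraries these shares were 61.0% and 60.6%. The part of the fibre-type lists in these results was not tested.

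**Figure D5:**
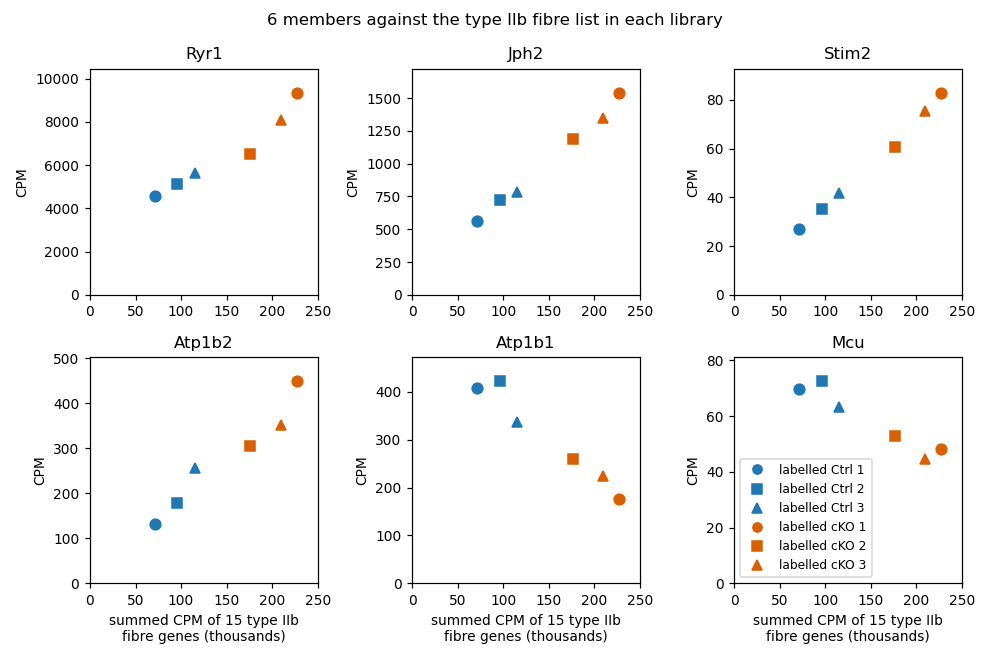
CPM of 6 of the 32 genes (vertical axes from 0) against the summed CPM of the 15 genes of the type IIb list in the same library (horizontal axes). That list includes genes of fast fibres in general. Ryr1, Jph2, Stim2 and Atp1b2 rise from Ctrl 1 to cKO 1 in the order of the sum, while Atp1b1 and Mcu are lower in the libraries with the larger sums.

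Other cell types also differed between the groups. Of 15 immune genes, 9 were higher in Ctrl-labelled libraries and 0 in cKO-labelled ones, with sums of 221 to 253 CPM and 102 to 143 CPM. In the lists of progenitor (6 of 14 genes), smooth muscle and pericyte (4 of 11) and Schwann cell genes (2 of 10), those that passed were higher in Ctrl-labelled libraries. Their sums were 3139 to 3179, 566 to 582 and 205 to 278 CPM in Ctrl-labelled libraries and 2183 to 3112, 455 to 502 and 101 to 161 CPM in cKO-labelled ones. No gene passed among the 11 endothelial genes, the 8 adipocyte genes or the 8 cardiac genes (5 of them tested), and 1 of 6 satellite cell genes was higher in cKO-labelled libraries. The endothelial sums were 578 to 633 and 555 to 561 CPM, the adipocyte sums 200 to 261 and 205 to 257 CPM, the cardiac sums 456 to 873 and 110 to 374 CPM, and the satellite cell sums 30.3 to 31.9 and 36.9 to 46.3 CPM. Of the skeletal muscle genes, 6 of 12 were higher in cKO-labelled libraries and 2 in Ctrl-labelled ones. Their sums were 120200 to 138000 CPM in Ctrl-labelled libraries and 168600 to 215800 CPM in cKO-labelled ones. Myh4, Mylpf, Tnnt3 and Tnni2 of this list are also on the type IIb list, so both lists partly count the same genes. The part of these cells in the levels of the 32 genes was not tested.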

How the data were processed

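Bulk RNA-Seq of GP muscle from 3 mice labelled Ctrl and 3 labelled cKO was analysed. The authors trimmed reads with Trimmomatic (version 0.39) after FastQC (version 0.11.8), aligned them to mm10 with HISAT2 (version 2.1.0) and counted them per gene with featureCounts (version 1.6.2). The deposited counts were whole numbers without normalization. Annotation and strand setting are not given in the sources used here.

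The counts went into edgeR 4.0.16 under R 4.3.3 (filterByExpr, TMM, glmQLFit, glmQLFTest, Benjamini-Hochberg adjustment over 14180 genes), with DESeq2 1.42.0 as an alternative, and both were tested on simulated data. SEs were derived from the F statistic. CPM used TMM factors. A fold change over 2 was a second threshold, as in the study's methods. Count ratios had 0.5 added to both counts. Mice are separate animals, and replicates differed by more than counting error (chi-square per degree of freedom 29.5 to 101).

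The 32 genes and the gene lists were chosen with earlier results of these data known. Genes past the adjusted p threshold are given in full and others by their values beside relatives. Of the other pathway genes, the 8 with the largest absolute log2 fold change among those that passed are named, except an item that is not reported here. Positions, exon lengths and overlaps come from GENCODE M21 (GRCm38), promoters from RefSeq. Alternatives were other scalings, filters and tests, a replicate block, and each library left out.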

Additional observations from a re-analysis of the deposited data

How the results depend on the processing

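Among the 20 genes that passed, direction was the same in all alternatives. The count of genes higher in cKO-labelled libraries was 17 and became 8 with total counts, 7 with glmTreat against a 1.2-fold change, which needs a larger change to pass, and 7 to 16 with 1 library left out. It was 15 to 18 with DESeq2's size factors, a robust fit, DESeq2's Wald test, no filter, or a minimum of 10 counts per library. Over all genes, the count of 1786 higher in cKO-labelled libraries became 673 with total counts and 766 to 1777 with 1 library left out. Among the 32 genes, the count higher in Ctrl-labelled libraries was 3 and became 7 with total counts, 1 with glmTreat and 2 to 3 with 1 library left out. Over 2-fold, the counts of 1 (cKO) and 0 (Ctrl) became 0 and 2 with total counts and 0 to 3 and 0 to 1 with 1 library left out. The other pathway genes higher in Ctrl-labelled libraries, 9, became 21 with total counts and 4 to 11 with 1 library left out. Over all genes, the count of 1668 became 4074 with total counts and 788 to 1808 with 1 library left out. Signs turned only in genes that had not passed. With total counts these were Stac3 (-0.11), Bin1 (-0.0126) and Atp2b1 (-0.18). Hrc was 0.0051 with DESeq2's size factors and with DESeq2's Wald test, 0.0079 without a filter and -0.036 to 0.057 with 1 library left out, and Slc8a3 was -0.30 to 0.026. With the mouse number as a replicate block, 6 of the 32 genes were higher in cKO-labelled libraries and 2 in Ctrl-labelled ones. Over all genes these counts were 927 and 972 with the block, and 1786 and 1668 without it. Mice with the same number did not deviate together (correlations of 0.085, -0.24 and -0.0099), and not every library correlated best with its own number. With 3 mice per group such values cannot exclude pairs, so whether the numbers mark pairs was not settled. The cause of these changes was not tested, apart from the shift of all fold changes with total counts. No ratio of the 14 pairs moved by more than the spread between libraries when 5 was added to the counts. Leaving out 1 of 3 libraries cannot move the mean of a group by as much as its SD, so this was no check of the ratios. Ryr3 had the fewest counts of the 32 genes, 41 to 157 per library, and how far depth limits its call was not tested.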
